A study of Mus musculus with 4 samples.

Results

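The transcripts followed here are those of 10 genes of the skeletal muscle fiber, measured in cells sorted from subcutaneous leukemic tumors. They are Myh1, Myh4, Myl1 and Mylpf of the thick filament, Acta1, Tnnt3 and Tnni2 of the thin filament, Actn3 of the Z disc, and Ckm and Mb of energy supply. Every spot of the 4 arrays that is not a control and whose accession maps to 1 of these symbols was taken, without regard to its signal. This gave 16 probes for the 10 genes, out of 59305 spots per array and 22911 genes with a symbol.

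C57BL/6Ncr mice, either wild type (Wt) or lacking Sipa1 (Sipa1-/-), were used at the age of 8 weeks. Every mouse of both genotypes received 15000 hematopoietic progenitor cells (HPCs) transformed with Bcr-Abl and tagged with GFP, placed in Matrigel under the skin. On day 12 the tumors were digested with collagenase and DNase I, and 2 populations were sorted from them. The mesenchymal stroma cell (MSC) sort was GFP- CD45- Ter119- CD31-, and the CD8+ T cell sort was GFP- TCRb+ CD8+. The MSC gate is thus set by the absence of 4 markers and holds no marker that its cells must carry. The study used 5 mice of each genotype, and whether their cells were pooled for an array is not given in the sources used here. There was 1 array for each cell type and genotype, 4 in all, so no condition was repeated, no difference below has a replicate check, no test was run, and no value carries an SD or a p-value. A level is the log2 signal of a probe minus the 75th percentile of log2 signal on its array. Log2 ratios compare arrays for the same probe or the same probes of a gene. Levels of different probes were also summed over lists, ranked by brightness and, for myosin heavy chains, set against each other. A difference in level between probes is not taken as a difference in amount of RNA.

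Skeletal muscle fibers are long, multinucleated cells packed with sarcomeres, in which myosin of the thick filaments pulls on actin of the thin filaments when calcium binds to troponin. Fast fibers use their own isoforms of most of these proteins, and creatine kinase and myoglobin serve their energy and oxygen supply. Under the skin of a mouse lies a thin sheet of such muscle, the panniculus carnosus, while sarcomeric genes of this kind are not part of the known program of T cells.

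Of the 10 genes, 7 had a promoter entry in RefSeq (assembly GRCm38.p6), with 9 start sites between them, and Tnnt3, Tnni2 and Actn3 had none. The 4 promoters below are shown because the genes are sarcomeric or metabolic partners with higher signal in both MSC sorts than in both CD8+ T sorts. Each runs from 250 bases before the annotated start to the base before it, 5′ to 3′. Capitals mark the E box CAGCTG, the letters TATAA on either strand, so that TTATA on the printed strand is TATAA on the other, and the CArG box.
Ckm promoter, chr7:19410844-19411093, plus strand: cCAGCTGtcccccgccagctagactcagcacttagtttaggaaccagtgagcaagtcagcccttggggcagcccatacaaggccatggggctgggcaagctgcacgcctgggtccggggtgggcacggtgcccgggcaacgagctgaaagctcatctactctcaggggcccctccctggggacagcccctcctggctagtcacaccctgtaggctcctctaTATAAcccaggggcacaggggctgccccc
Acta1 promoter, chr8:123894776-123895025, minus strand: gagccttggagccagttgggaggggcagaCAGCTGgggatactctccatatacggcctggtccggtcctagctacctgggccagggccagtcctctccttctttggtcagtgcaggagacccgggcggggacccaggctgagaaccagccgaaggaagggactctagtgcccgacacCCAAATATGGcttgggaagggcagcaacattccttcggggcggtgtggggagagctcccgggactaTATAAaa
Myh1 promoter, chr11:67199852-67200101, plus strand: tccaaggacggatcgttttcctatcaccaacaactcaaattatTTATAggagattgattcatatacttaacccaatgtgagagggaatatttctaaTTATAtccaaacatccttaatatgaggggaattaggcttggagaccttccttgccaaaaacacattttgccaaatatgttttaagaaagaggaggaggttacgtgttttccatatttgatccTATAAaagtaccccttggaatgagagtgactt
Myh4 promoter, chr11:67237562-67237811, plus strand: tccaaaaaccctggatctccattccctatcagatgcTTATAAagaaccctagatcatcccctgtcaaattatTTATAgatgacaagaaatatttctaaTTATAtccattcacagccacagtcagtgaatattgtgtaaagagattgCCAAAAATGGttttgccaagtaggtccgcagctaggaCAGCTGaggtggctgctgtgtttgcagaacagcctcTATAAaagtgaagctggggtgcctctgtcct
The E box CAGCTG, which reads the same on both strands, is the type of element that myogenic factors such as MyoD bind. It was found in 6 of the 7 genes and 7 of the 9 promoters, against 13.0% of all 32851 promoters of this length. Myh1 was the gene without it. Mb entered with overlapping windows of 2 start sites, with the E box at -133 and -193, so the 7 promoters need not hold 7 separate sites. TATAA was found in 5 of the 7 genes and 5 of the 9 promoters, against 22.8% of all promoters. In Myh4, the run TTATAA holds TATAA on both strands and was counted once for each strand. The CArG box, the element bound by serum response factor, was found in Acta1 and Myh4, in 2 of the 9 promoters, against 1.47% of all promoters. A match of letters is a description of the sequence and not evidence of binding.

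All 10 genes, with 16 of 16 probes, were well above background on both MSC arrays. In CD8+ T cells this held for 12 probes of 8 genes in Wt and for 11 probes of 7 genes in Sipa1-/- mice. No spot was saturated on any array. In 15 of the 16 probes both MSC arrays lay above both CD8+ T arrays and Sipa1-/- MSCs lay above Wt MSCs. The order of the 2 CD8+ T arrays was divided, with the Sipa1-/- array above the Wt array in 7 of these probes and below it in 8, dim probes included, whose order carries no weight. The remaining probe was the second one of Mylpf, described below.

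The thick filament genes were measured by 8 probes. Myl1, an essential light chain of fast fibers, had 3 probes that behaved alike. Its brightest probe was at 4.63 in Wt MSCs, 5.53 in Sipa1-/- MSCs, -2.39 in Wt CD8+ T cells and -2.36 in Sipa1-/- CD8+ T cells. The second Myl1 probe was at 4.16, 5.08, -1.98 and -2.05 in the same order. The third, for another Myl1 transcript, was at 0.17 and 1.08 in the MSC sorts and not well above background in either CD8+ T sort. The MSC and the CD8+ T arrays were thus separated by several log2 units in each of the 3, and the 3 Sipa1-/- over Wt log2 ratios in MSCs lay between 0.90 and 0.92.

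Myh4 encodes the IIb myosin heavy chain, the fastest of the adult mouse. Its brighter probe was at 2.95 in Wt MSCs, 3.33 in Sipa1-/- MSCs, -3.83 in Wt CD8+ T cells and -5.00 in Sipa1-/- CD8+ T cells. The other Myh4 probe was at -4.11 and -3.75 in the MSC sorts and below the background limit in both CD8+ T sorts. Myh1, the IIx heavy chain, was at 0.45 and 0.85 in Wt and Sipa1-/- MSCs and was not well above background in either CD8+ T sort. The arrays of the 2 genotypes therefore stood closer for both heavy chains than for Myl1 in MSCs.

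Mylpf encodes the regulatory light chain of fast fibers, and its 2 probes disagreed. Probe A_52_P383572, for the curated transcript, was at 2.95 in Wt MSCs, 3.79 in Sipa1-/- MSCs, -0.21 in Wt CD8+ T cells and -0.51 in Sipa1-/- CD8+ T cells. Probe A_55_P2058591, for a predicted transcript, was at -1.00, -2.82, -1.44 and -1.72 in the same order. It was the 1 member probe that was lower in Sipa1-/- than in Wt MSCs, and on it the CD8+ T arrays lay between the MSC arrays. Averaged over the 2 probes, Mylpf had a log2 ratio of -0.50 in MSCs, but with the brighter probe alone the log2 ratio was 0.83, so the direction for this gene depends on the probe.

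Among the thin filament genes, Acta1 encodes the skeletal alpha actin itself. Acta1 was at 4.78 in Wt MSCs, 5.38 in Sipa1-/- MSCs, -2.32 in Wt CD8+ T cells and -2.47 in Sipa1-/- CD8+ T cells. Tnni2, the inhibitory troponin subunit of fast fibers, was at 4.88, 5.80, 0.70 and 1.37 in that order. Tnni2 was the member whose signal in both CD8+ T sorts lay above the 75th percentile of the array. Tnnt3, the tropomyosin-binding troponin of fast fibers, had 3 probes, at 4.15, 3.18 and 3.10 in Wt MSCs and at 5.10, 4.16 and 4.02 in Sipa1-/- MSCs. In CD8+ T cells the same 3 probes were at -0.84, -2.81 and -2.83 in Wt and -0.66, -2.93 and -3.00 in Sipa1-/- cells. The 3 probes gave log2 ratios of 0.95, 0.97 and 0.92 in MSCs, so that they moved by nearly the same amount.

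Actn3, the alpha-actinin that anchors actin at the Z disc of fast fibers, was at 1.27 in Wt MSCs, 1.47 in Sipa1-/- MSCs, -5.38 in Wt CD8+ T cells and -5.04 in Sipa1-/- CD8+ T cells. The last 2 values lay just above the lowest signals that counted as well above background on those arrays, -5.56 and -5.49. Ckm, the muscle creatine kinase that regenerates ATP from phosphocreatine, was at 1.85, 2.46 and -4.79 on the first 3 arrays and was not well above background in Sipa1-/- CD8+ T cells. Mb, the oxygen-storing myoglobin, was at 0.73 in Wt and 1.83 in Sipa1-/- MSCs and was not well above background in the CD8+ T sorts. These 3 genes thus reached from clear signal in the MSC sorts to the limit of detection in the T cell sorts.

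**Figure D1:**
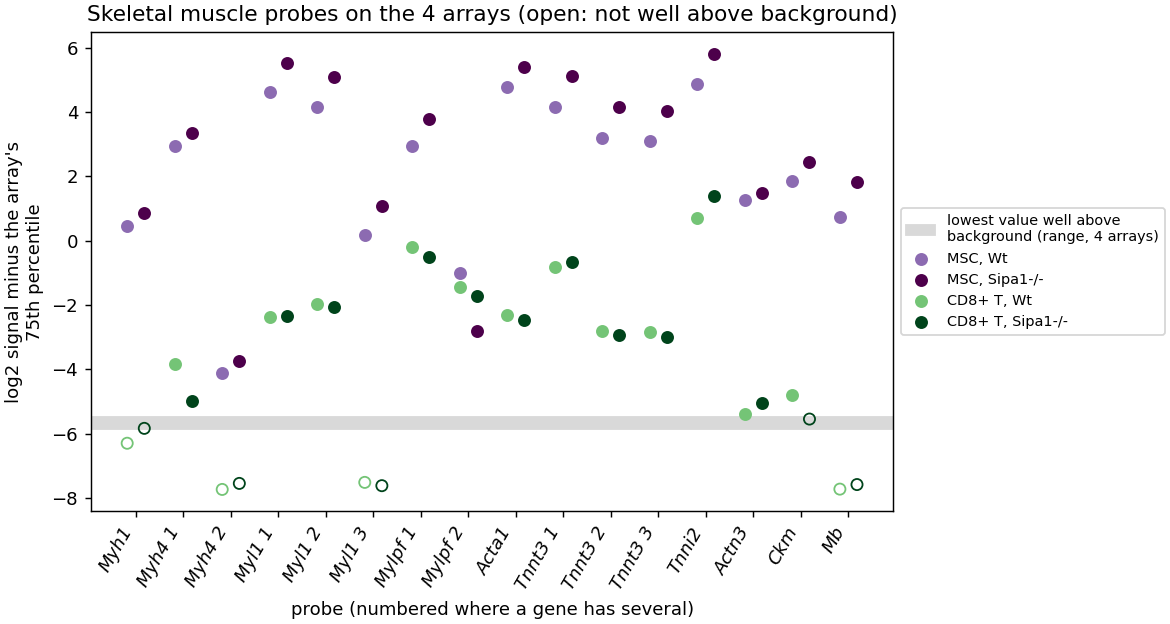
Level of each of the 16 probes on the 4 arrays, as log2 signal minus the 75th percentile of the array (y axis), by probe (x axis). Filled circles are well above background and open circles are not, the gray band spans the lowest values well above background on the 4 arrays (-5.86 to -5.49), and the MSC arrays stand above the CD8+ T arrays in every probe but the second Mylpf probe.

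The first comparison asks how the transcripts of the MSC sort differ between Sipa1-/- and Wt hosts. All 10 muscle genes could be compared, and 9 of them were higher on the Sipa1-/- MSC array, by log2 ratios of 0.21 to 1.10, where 51.7% of all 15297 genes measured on both arrays lay above 0. The member median was 0.60 and the median over all genes was 0.04. Mb was the 1 member past 2-fold, 2.14-fold higher, and no member was lower by as much. Of all genes 19.3% passed 2-fold in the direction of Sipa1-/- MSCs and 11.3% in the other. The share of members past 2-fold, 1 of 10, was below that of the array as a whole. It was above it with quantile normalization, at 3 of 10 against 19.0%, and with the series matrix, at 4 of 10 against 24.0%. In bulk RNA of a sort, fewer cells of a type and less RNA per cell cannot be told apart.

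By role, Tnnt3 with 0.95 and Tnni2 with 0.92 led the thin filament genes, and Acta1 followed with 0.60. In the thick filament, Myl1 was higher by 0.91, Myh1 by 0.40 and Myh4 by 0.37. Actn3 had the smallest positive log2 ratio, 0.21. Ckm was 1.52-fold higher. Among all genes measured in this pair, 82.6% had a lower ratio than Mb, 79.6% a lower ratio than Tnnt3, 56.9% a lower ratio than Actn3 and 25.6% a lower ratio than Mylpf. All members but Mylpf thus lay in the upper part of the distribution, though not at its end. All 16 probes differed by more than 0.126, the size that spot noise alone gives (2 SD of a difference, from probes printed on 10 spots of the same array), and 15 of them were higher on the Sipa1-/- array. Spot noise does not cover the spread between mice, sorts or labelings.

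**Figure D2:**
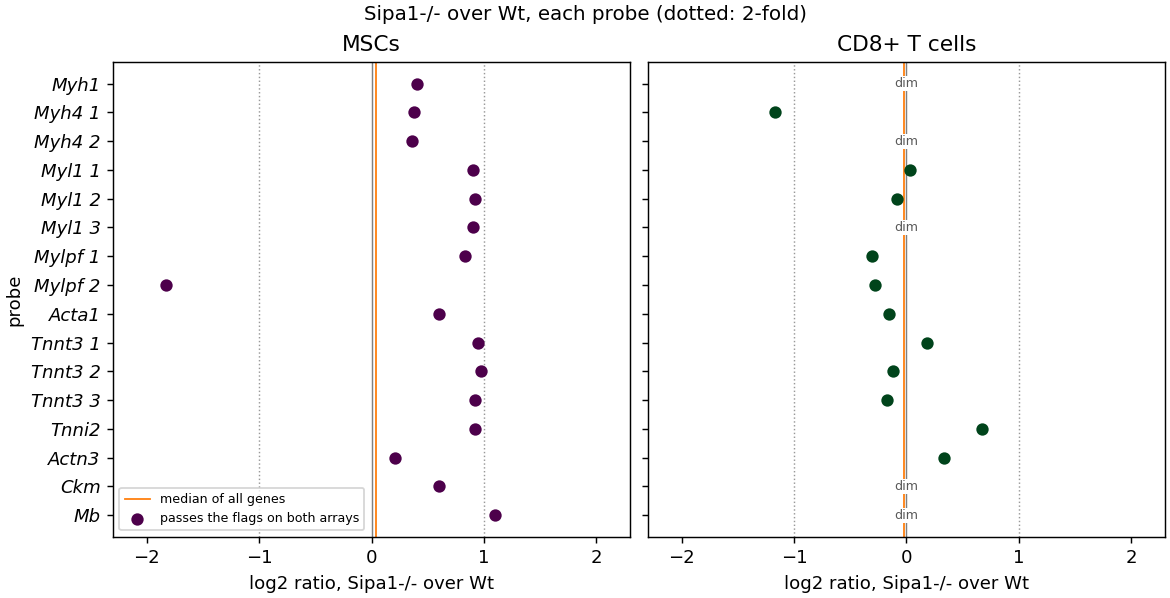
Log2 ratio of Sipa1-/- over Wt (x axis) for each member probe (y axis), in MSCs on the left and CD8+ T cells on the right, with dotted lines at 2-fold and an orange line at the median of all genes. In MSCs 15 of 16 probes lie to the right of 0, whereas the 11 probes that passed the flags in CD8+ T cells lie on both sides of 0. Probes marked dim did not pass on both arrays.

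Other muscle genes were read from 9 lists holding 80 further genes. Of 5 lists of adult fiber genes with 47 genes, 43 were measured in MSCs, 37 of them higher and 6 lower on the Sipa1-/- array, with 15 and 1 of them past 2-fold and a median log2 ratio of 0.66. In energy metabolism 12 of 12 genes were higher and 7 of them at least 2-fold, with a median of 1.03. Cox7a1, a muscle subunit of cytochrome c oxidase, went from 1.30 to 2.44 and Cox6a2, another such subunit, from 1.41 to 2.46. Eno3, the muscle enolase, went from 3.05 to 3.58, and Pfkm, the muscle phosphofructokinase, from 1.75 to 2.40. All 9 measured genes of the Z disc and giant sarcomere proteins were higher, with a median of 0.81. Among them Tcap, the titin cap, had a log2 ratio of 0.62 and Des, the intermediate filament desmin, one of 0.10.

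The 5 measured thin filament genes were all higher, with a median of 0.79. Tnnc2, the calcium-binding troponin of fast fibers and the partner of Tnnt3 and Tnni2, went from 5.59 to 6.37. Tpm2, a tropomyosin, had a log2 ratio of 1.10 and Lmod3, an actin nucleator of the thin filament, one of 1.35. In excitation and calcium handling, 9 of 12 measured genes were higher and 3 lower, with a median of 0.53. Pvalb, the calcium buffer parvalbumin of fast fibers, went from 3.26 to 4.41, whereas Atp2a1, the calcium pump of their sarcoplasmic reticulum, had a log2 ratio of 0.17. The thick filament partners were mixed, with 2 of 5 higher, 3 lower and a median of -0.28. Myom2, an M band protein, went from 2.48 to 0.28, a log2 ratio of -2.20, and Mybpc2, the fast myosin-binding protein C, had a log2 ratio of -0.28. The list therefore held both directions.

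Isoforms of other fibers and stages behaved less evenly. Of 6 measured slow fiber isoforms 5 were higher, with a median of 0.44. Myl3, a light chain of slow fibers and the heart, went from 1.71 to 2.56, but Tnnt1, the slow troponin T, had a log2 ratio of 0.09. Of 4 measured embryonic and neonatal isoforms 2 were higher and 2 at least 2-fold lower. Tnnt2, the cardiac troponin T, had a log2 ratio of -4.57, and Myl4, an embryonic light chain, one of -2.49. In Sipa1-/- MSCs Tnnt2 was at -5.50, near the lowest signal well above background there, -5.79, so the size of its ratio is uncertain. Of 8 cardiac genes 2 were measured in MSCs, Tnni3 with a log2 ratio of 1.31 and Mybpc3 with -1.19. Of 13 myogenic and satellite cell genes 7 were measured, 5 of them higher, with a median of 0.16. Myf6, a myogenic factor of mature fibers, went from -3.32 to -2.42, Cdh15, the cadherin of satellite cells, had a log2 ratio of 0.09, and Megf10, a receptor of satellite cells, had the largest one in size, -3.78. That ratio came from the brighter Megf10 probe, which went from -1.28 to -5.06, toward the same limit. Its other probe was not well above background on any array. Pax7 and Myf5, transcription factors that define satellite cells, did not pass the background flag on any array, and Myod1 passed it only on the Sipa1-/- MSC array. The list was thus detected in part, with values in both directions.

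Fast myosin heavy chains are close paralogs, and 1 probe calls for caution. A probe annotated to Myh8, the neonatal heavy chain, followed the brighter Myh4 probe over the 4 arrays, in that the difference between them varied by 0.32 log2 units. The other Myh8 probe and both probes of Myh3, the embryonic heavy chain, were not well above background on any array. Whether the probes of these paralogs share a target was not tested. Myh1 and Myh4 are neighbors on chromosome 11 with 0 protein-coding genes between them, and Myh8 is next to Myh4. Tnni2 and Tnnt3 are on chromosome 7 with 1 protein-coding gene between them. Actn3 lies on chromosome 19, as does the targeted gene Sipa1, with 41 protein-coding genes between.

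Markers of other cells moved between the same MSC arrays. Of 10 fibroblast markers 9 were measured, each with a higher level in Sipa1-/- MSCs, and their median log2 ratio was 1.14 beside the 0.60 of the muscle genes. Schwann cell markers had a median of 1.09 with 6 of 7 higher, keratinocyte markers 0.61 with 5 of 5 higher, and smooth muscle and pericyte markers 0.62 with 6 of 9 higher. Macrophage markers had a median of 0.92 with 7 of 8 higher. Adipocyte markers had a median of 0.68 over the 3 of 8 genes measured on both arrays, with 3 genes detected in Wt and 6 in Sipa1-/- MSCs. Adipoq, which defines adipocytes, was dim in Wt MSCs and at -3.79 in Sipa1-/- MSCs. T cell markers had a median of 0.88 with 5 of 8 higher, but this list was split. Past 2-fold were 4 of its markers in the direction of Sipa1-/- MSCs and 3 in the other, with Cd2 at -3.52. Its median thus stands for neither group. Thy1, with a log2 ratio of 1.14, is on both the T cell and the fibroblast list and sets the fibroblast median. Granulocyte markers had a median of 0.24, endothelial markers -0.03 and erythroid markers -0.08. Several lists of other cells thus had positive medians beside that of the muscle genes.

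B lineage markers went the other way, with 9 of 9 measured genes at least 2-fold lower and a median of -4.16. Cd79b, a part of the B cell receptor, went from 6.65 to 2.49. The summed level of the B lineage list, in multiples of the 75th percentile of each array, was 661 in Wt and 41.0 in Sipa1-/- MSCs. The summed level of the 10 muscle genes was 87.6 and 149.7 on the same arrays, and that of the fibroblast list was 993 and 1595. The RNA of the 2 MSC sorts thus differed in more than muscle transcripts. What part these other transcripts have in the muscle values was not tested.

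**Figure D3:**
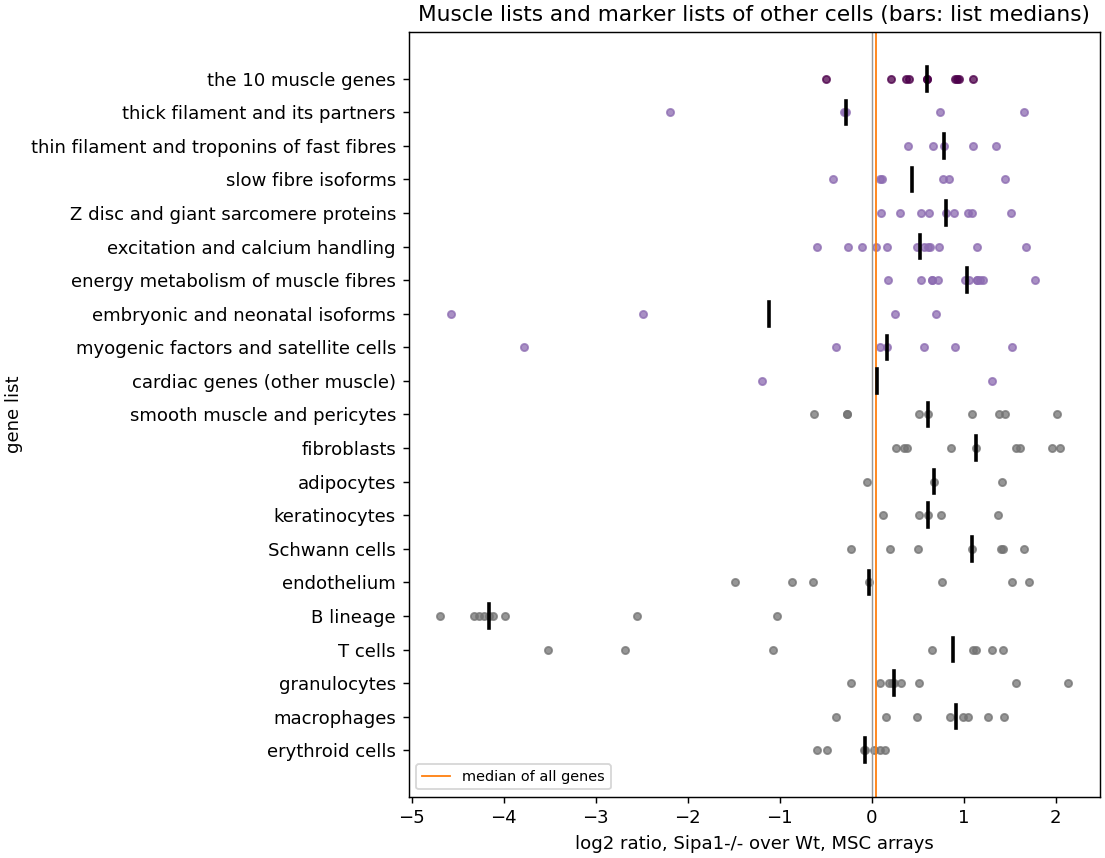
Log2 ratio of Sipa1-/- over Wt on the MSC arrays (x axis) for each measured gene (points) of the 10 muscle genes, the 9 further muscle lists and the 11 marker lists of other cells (y axis). Black bars are list medians and the orange line is the median of all genes. The members have a median of 0.60, the fibroblast list 1.14 and the B lineage list -4.16.

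The same question was put to the CD8+ T cell sorts, where 7 of the 10 muscle genes were measured on both arrays. Of these 2 were higher and 5 lower on the Sipa1-/- array, with a median log2 ratio of -0.04, and 46.1% of all 14336 genes lay above 0, with a median of -0.02. Myh4 was the 1 member past 2-fold, 2.25-fold lower, with a log2 ratio of -1.17, but its log2 ratio was -0.16 with normexp and -0.49 with no flags, so the call rests on the processing. At least 2-fold lower were 1.4% of all genes, and at least 2-fold higher 2.66%, with 0 members. Tnni2 was higher by 0.68 and Actn3 by 0.34. Mylpf had a log2 ratio of -0.29 and Acta1 one of -0.15. Ckm, dim in Sipa1-/- cells, was at least 1.63-fold lower there with the deposited background correction, and Myh1 and Mb were dim on both arrays. Tnnt3 at -0.04 and Myl1 at -0.02 were smaller than the spot noise limit of 0.126 and changed sign between processing settings. The members had no common direction in CD8+ T cells, and of the 11 probes that passed, 4 were higher, 7 lower and 3 within spot noise.

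Of the 47 genes in the 5 further lists of adult fiber genes, 28 were measured in the CD8+ T sorts, 19 higher and 9 lower, with a median of 0.14, where 46.1% of all genes lay above 0. Markers of other cells moved between these arrays as well. The 10 fibroblast markers were all higher on the Sipa1-/- array, with a median of 1.63, while granulocyte markers had a median of -1.12 and erythroid markers one of -1.14. What part these transcripts have in the muscle values was not tested. The summed level of the 10 muscle genes was 2.77 in Wt and 3.60 in Sipa1-/- CD8+ T cells. Tnni2, at 0.70 and 1.37 in log2, contributes most to this sum. The higher sum therefore does not stand for the members as a set, of which 5 of 7 measured were lower.

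The sorts were then compared with each other within a genotype. In Wt tumors 8 of the 10 muscle genes were measured in both sorts and all 8 were past 2-fold with MSCs higher, against 17.3% of all 14222 genes. At least 2-fold lower in MSCs were 12.8% of all genes and 0 members. The member median was a log2 ratio of 6.61, while the median of all genes was -0.06. Acta1 was 137-fold higher, Myh4 110-fold, Actn3 100.1-fold, Ckm 99.6-fold and Myl1 95.4-fold. These 5 genes, from the thin filament, thick filament, Z disc and energy supply of the fiber, lay within 6.58 and 7.10 on the log2 scale. That range depends on the background correction, since with normexp Actn3 had a log2 ratio of 3.95, Ckm 4.38, Myh4 5.21, Myl1 5.85 and Acta1 6.26. With flags on 1 array, which brings in its dimmer probe, Myh4 had 5.20. Tnnt3 was 49.7-fold, Tnni2 18.2-fold and Mylpf 3.49-fold higher. For the genes dim in CD8+ T cells only a bound can be given. With the deposited background correction it was at least 64.5-fold for Myh1 and at least 78.3-fold for Mb. No bound is given with normexp, which lowered the ratios of the 5 genes above. Of all genes, 99.99% had a lower ratio than Acta1 and 89.4% a lower ratio than Mylpf.

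In Sipa1-/- tumors 7 of the 10 were measured in both sorts and all 7 were past 2-fold with MSCs higher, against 21.9% of all 14297 genes. At least 2-fold lower were 18.7% of all genes and 0 members. The member median was 6.62 and that of all genes -0.18. Myh4 was 322-fold higher, Acta1 230.4-fold, Myl1 183-fold, Tnnt3 98.4-fold and Actn3 91.5-fold. Tnni2 was 21.5-fold and Mylpf 3.02-fold higher. With the deposited background correction, the bounds were at least 247-fold for Ckm, at least 160-fold for Mb and at least 81.1-fold for Myh1. None is given with normexp. Tnni2 and Mylpf had the lowest ratios in both genotypes, and the order of the others differed. With normexp Actn3 had a log2 ratio of 4.01 here and Myh4 one of 5.75. The probes of Mylpf disagreed again. The curated probe alone had log2 ratios of 3.16 in Wt and 4.30 in Sipa1-/- tumors, still below those of Tnni2, and the other had 0.45 and -1.11.

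**Figure D4:**
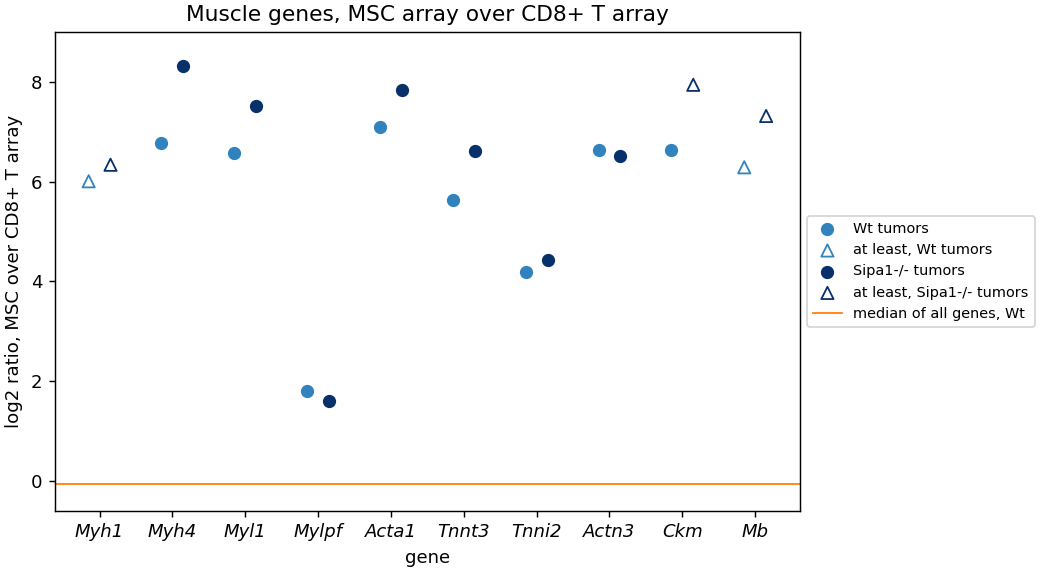
Log2 ratio of the MSC array over the CD8+ T array (y axis) for each muscle gene (x axis), in Wt and in Sipa1-/- tumors. Circles are genes measured on both arrays, triangles are lower bounds for genes not well above background in CD8+ T cells, and the orange line is the median of all genes in Wt tumors, -0.06. Apart from Mylpf and Tnni2, every gene stands above 5.6 with the deposited background correction.

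The further fiber genes were spread more widely. In Wt tumors Tnnc2 had a log2 ratio of MSC over CD8+ T of 6.76, Tcap 6.74 and Mybpc2 6.64, but Atp2a1 had 2.88, Lmod3 2.26 and Actn2, the other sarcomeric alpha-actinin, -0.56. Of the 5 further lists of adult fiber genes, 26 of 29 measured genes were higher in MSCs in Wt tumors, with a median of 2.46, and 26 of 29 in Sipa1-/- tumors, with a median of 3.06, where 46.6% and 42.9% of all genes lay above 0. The slow fiber isoforms had a median of -0.51 in Wt tumors, with 5 of 7 lower in MSCs, although Myl3 was at 6.70. Several of these genes had clear signal in T cells too. Eno3 was at 2.55 in Wt CD8+ T cells and Cacna1s, a calcium channel subunit, at 1.59, and their log2 ratios were 0.50 and -0.52. Not every gene of the further lists was thus low in the T cell sorts.

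The sorted cells were checked against their own markers. Fibroblast markers had a median log2 ratio of MSC over CD8+ T of 5.08 in Wt and 4.25 in Sipa1-/- tumors, and T cell markers of -6.29 and -6.71. Both Sipa1 probes were lower on the Sipa1-/- arrays, with log2 ratios of -1.25 and -1.59 in MSCs and of -1.67 and -2.05 in CD8+ T cells, and stayed well above background. Erythroid markers, whose cells carry the Ter119 antigen that the MSC gate left out, were also far higher in the MSC sorts, with medians of 5.57 and 6.59. Hba-a1, a globin of red cells, was at 8.29 and 8.39 in Wt and Sipa1-/- MSCs and at 3.03 and 1.93 in the CD8+ T sorts. Granulocyte markers, from CD45+ cells, had medians of 0.03 and 1.55. Erythroid markers in the MSC sorts and granulocyte markers in all 4 sorts thus had high levels, although the gates left these cells out. This did not hold for every list of such cells. In Wt and Sipa1-/- MSCs the summed level was 614 and 659 for erythroid markers and 728 and 817 for granulocyte markers. It was 6.24 and 4.59 for endothelial markers and 6.28 and 8.17 for macrophage markers.

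Over the 4 arrays, the mean profile of the members, each centered on its own mean, was 2.83 in Wt MSCs, 3.39 in Sipa1-/- MSCs, -3.10 in Wt CD8+ T cells and -3.12 in Sipa1-/- CD8+ T cells. Dim probes entered as well, so the CD8+ T values of this profile rest in part on signal not well above background. Tnnt3 lay nearest to the profile, with a root mean square distance of 0.15, and Mylpf farthest, with 2.29. Outside the muscle lists and the marker lists of other cells, 13889 genes with a probe well above background on each of the 4 arrays were considered. Of the members, Myh1, Mb and Ckm would not meet that limit. Aldh1a1, a retinaldehyde dehydrogenase, was the most alike with a distance of 0.17. Pdzk1ip1 with 0.20, Ces2g with 0.22, Zdhhc22 with 0.23 and Smim1 with 0.27 came next. Aldh1a1 was at 1.84, 2.15, -3.88 and -4.00 on the arrays in the same order. A profile over 4 arrays is dominated by the gap between the 2 sorts, and many genes can share it.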

How the data were processed

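Agilent one-color arrays (SurePrint G3 Mouse v2, Cy3) measured total RNA of 4 sorts. The authors deposited spot intensities, corrected for background by Feature Extraction (9.1 in the submitters' processing notes, 12.0.3.1 in the file header) and not normalized between arrays. Here log2 of the deposited signal was taken and the 75th percentile of the array, over its non-control spots, subtracted. The authors' series matrix holds the same intensities times a constant (1.13, 1.34, 0.941 and 1.13 for Wt MSC, Sipa1-/- MSC, Wt CD8+ T and Sipa1-/- CD8+ T), linear and not centered, with medians of 41.0, 52.0, 25.5 and 30.9. What set the constants is not given in the sources used here.

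Accessions were matched to RefSeq symbols for 57.6% of 59305 spots. The flag values are those of the study's methods, 0 for saturation and non-uniformity and 1 for signal and background. Asking them of a share of at least 0.5 of a probe's spots, for each array of a pair, was chosen here. Probe means were averaged per gene. Of spots, 59.7% to 64.3% passed, and the median SD between spots of a probe was 0.040 to 0.045. The number of arrays limits the precision. For a gene dim on 1 array, the bound sets its bright level against the higher of its dim signal and the lowest signal well above background there. The bounds use the deposited background correction, and none is given for other settings.

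Counts used a log2 ratio of 1, with no test. Named genes are the members, at most 4 of the brightest genes per muscle list and 3 per marker list, Sipa1, and the 5 genes most like the members; Pax7, Myf5, Myod1, Megf10, Myh3 and Adipoq were named after their values were seen. The members and lists were chosen with earlier results of these data known. Alternatives were flags on 1 array, no flags, median shift, quantile normalization, series matrix values, normexp on the median spot signal (offset 50), only the brightest probe of a gene, and only genes above the median signal. Scripts were tested on simulated data. The analysis was run in R 4.3.3 with limma 3.58.1 and in Python 3.11.15 with pandas 2.3.3, numpy 2.4.6 and matplotlib 3.10.9.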

Additional observations from a re-analysis of the deposited data

Results flagged for a closer look

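Acta1 and Myh4 had log2 ratios of opposite sign in the 2 cell types. The log2 ratio of Sipa1-/- over Wt for Acta1 was 0.60 in MSCs and -0.15 in CD8+ T cells. That of Myh4 was 0.37 in MSCs and -1.17 in CD8+ T cells. Opposite signs were also seen for Tnnt3, with 0.95 and -0.04, and Myl1, with 0.91 and -0.02. Their CD8+ T values were within the spot noise limit. The curated Mylpf probe alone had 0.83 in MSCs and -0.31 in CD8+ T cells. With 1 array per condition, whether MSCs and CD8+ T cells differ in this was not tested. In the CD8+ T sorts only the brighter Myh4 probe was measured, at -3.83 and -5.00, and its ratio in MSCs was 0.38. In CD8+ T cells the Acta1 ratio was -0.018 with the series matrix and -0.027 with normexp, within the spot noise limit of 0.126, and the Myh4 ratio was -0.16 with normexp and -0.49 with no flags.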

How the results depend on the processing

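No paired analysis was possible because there was 1 array for each condition. The median log2 ratio of the muscle genes in MSCs, 0.60, was 0.46 with a median shift, 0.71 with quantile normalization, 0.81 with the series matrix, 0.72 with the brightest probe and 0.91 with only genes above the median signal, which left 5 members. The count past 2-fold, 1 in the report, was 0 with a median shift and with normexp, 3 with quantile normalization and 4 with the series matrix, where 24.0% of all genes were at least 2-fold higher. It was also 0 above the median signal, where Mb was not among the 5 members left. In CD8+ T cells the median of -0.04 was -0.18, -0.12, 0.10 and 0.030 with the median shift, quantile normalization, the series matrix and the brightest probe, so its sign is not settled. The count of 1, Myh4, was 0 with no flags and with normexp. It was also 0 above the median signal, where Myh4 was not among the 5 members left. MSC over CD8+ T in Wt tumors was 6.61, and 6.38, 6.43, 7.06, 4.63 and 5.64 with the median shift, quantile normalization, the series matrix, normexp and above the median signal. The last setting left 5 members in place of 8, and all 5 were past 2-fold. With flags on 1 array or no flags, all 10 were measured and past 2-fold. In Sipa1-/- tumors the 6.62 was 6.40, 7.15, 5.75 and 6.52 with the median shift, the series matrix, normexp and the brightest probe. The median shift moved the median of all genes by -0.14 in MSCs, -0.15 in CD8+ T cells, -0.23 and -0.22 between sorts in Wt and Sipa1-/- tumors, and the series matrix by 0.21, 0.13, 0.45 and 0.53. Relative to it the members' median in MSCs was 0.56 in both. In MSCs the members higher on the Sipa1-/- array numbered 9 of 10 under each alternative that kept all 10, except the brightest probe with 10 of 10, and 4 of 5 above the median signal.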
